A study of Homo sapiens with 2 samples.

Results

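The genes described here encode the CCT ring, the chaperonin of the cytosol, and its paralogs CCT6B and MKKS. They were taken by name from the chaperome table, the list of chaperones, co-chaperones and folding enzymes, and all 10 were found among its 332 genes. Of these, 8 encode the ring subunits (TCP1, CCT2, CCT3, CCT4, CCT5, CCT6A, CCT7 and CCT8) and 2 are the paralogs. The RNA was that of HEK293 Flp-In T-Rex, a line of human embryonic kidney origin built to take up a single transgene that tetracycline switches on. Its extraction text calls the cells HEK293T. Both libraries belong to 1 group, as replicates 1 and 2, with no treatment named. The series' design describes derived lines carrying 3xFLAG-HBH-tagged GFP or HSPA1A induced with tetracycline, and the labels do not say whether either was sequenced. The table holds chaperome genes only, so the cell line was not checked against markers outside it. Whether each replicate had its own culture is not stated, so differences between these samples may be technical. Replicate 1 had a library total of 6828264 reads and replicate 2 one of 4445676 reads.

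CCT, also called TRiC, is a barrel of stacked rings that encloses an unfolded protein and uses ATP to close over it. Actin and tubulin are its best known clients, and the co-chaperone prefoldin hands them to it. Each ring holds 1 copy of each of 8 different subunits in a fixed order, CCT2, CCT4, TCP1, CCT3, CCT6A, CCT8, CCT7 and CCT5, so equal amounts of the subunit proteins are used. CCT6B is a copy of the CCT6A subunit known mainly from testis. MKKS is a chaperonin-like protein that is mutated in McKusick-Kaufman and Bardet-Biedl syndromes and acts with BBS10 and BBS12 in assembling the BBSome, a complex of the primary cilium.

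The ring genes were among the highest of the chaperome and the paralogs were low. All 8 ring genes had a mean of at least 10 RPKM (reads divided by gene length in kilobases and by library size) per kilobase of genomic span, a level that 9.94% of the table's genes reached. The median ring gene stood at 27.1 RPKM per kilobase of genomic span, against 0.763 RPKM for the 322 genes of the table that are not members. The paralogs were under 1 RPKM on this scale, while 46.4% of the table's genes were at or above it. MKKS had a rank of 233 and CCT6B one of 276 among 332 genes. Genomic span, introns included, is the length the authors' RPKM uses. With reads divided by the union of annotated exons, the ring genes held ranks 9 to 21, and their median was 118 RPKM against 4.87 RPKM for the other 322 genes. On that scale 34.0% of the table reached 10 RPKM and 74.4% reached 1 RPKM, and 9 of the 10 members reached 1 RPKM. Divided by the longest annotated coding transcript, all 10 did, with CCT6B at 1.43 and MKKS at 1.17 RPKM. Of the 325 table genes with such a transcript, 254 reached 1 RPKM, and CCT6B ranked 248 and MKKS 251.

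**Figure D1:**
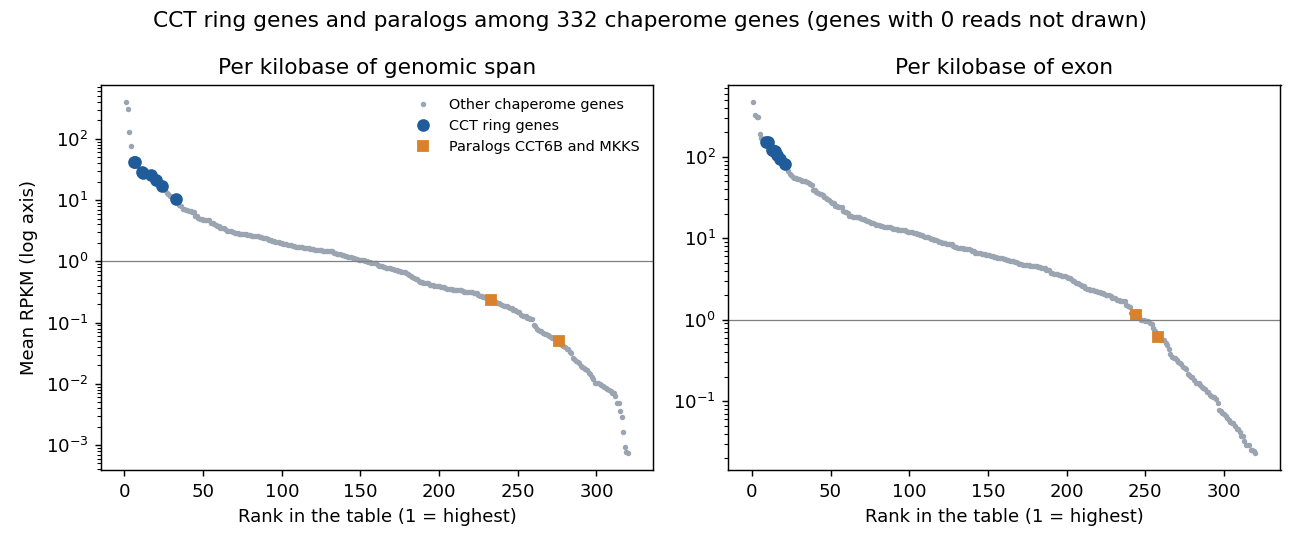
Mean RPKM over both replicates (log axis) against rank for each chaperome gene with a read, per kilobase of genomic span (left) and per kilobase of exon (right). Blue circles are the 8 ring genes, orange squares the paralogs and the grey line is 1 RPKM; the ring genes sit at ranks 6 to 33 on the left and 9 to 21 on the right.

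Together the 8 ring genes had 26677 of the reads of replicate 1, or 0.391% (0.386 to 0.395, 95% Wilson interval). They had 16608 of those of replicate 2, or 0.374% (0.368 to 0.379). They were 13.9% of all chaperome reads in replicate 1 (13.7 to 14.0) and 13.2% in replicate 2 (12.99 to 13.36). The intervals do not overlap, so the ring took a slightly smaller part of the reads in replicate 2 than counting error alone covers. These intervals cover counting error only. A gene with 0 reads could have been present at up to 3 reads, or 0.439 RPM (reads scaled by the library total) in replicate 1 and 0.675 RPM in replicate 2. In bulk RNA, fewer cells that express a gene and less RNA per cell cannot be told apart.

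The first question was how evenly the ring subunits were expressed, gene by gene. CCT5, the epsilon subunit, in which a mutation causes a sensory neuropathy in people (ENSG00000150753, chromosome 5, 10249929 to 10266389, plus strand, GRCh38), had 4758 reads in replicate 1 and 3098 in replicate 2. That gave 42.3 RPKM in both replicates per kilobase of genomic span and 119 RPKM in both per kilobase of exon. The libraries were level for this gene.

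TCP1, the alpha subunit and the founding member of the family (ENSG00000120438, chromosome 6, 159778498 to 159789703, minus strand), had 3229 and 2019 reads. Per kilobase of genomic span it stood at 42.2 RPKM in replicate 1 and 40.5 in replicate 2, or 41.4 ± 1.18 (SD, n = 2). Per kilobase of exon it stood at 95.9 and 92.1 RPKM, so it was the second of the ring on the first scale and the seventh on the second. CCT2, the beta subunit, also reported as a receptor for clearing protein aggregates by autophagy (ENSG00000166226, chromosome 12, 69585426 to 69601570, plus strand), had 3316 and 1949 reads, or 30.1 and 27.2 RPKM per kilobase of genomic span and 112 and 101 RPKM per kilobase of exon. Replicate 2 was the lower for both genes.

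CCT8, the theta subunit (ENSG00000156261, chromosome 21, 29055805 to 29073797, minus strand), had 3437 and 2255 reads. Its levels were 28.0 and 28.2 RPKM per kilobase of genomic span and 151 and 152 RPKM per kilobase of exon. CCT7, the eta subunit (ENSG00000135624, chromosome 2, 73233420 to 73253021, plus strand), had 2853 and 1864 reads, or 21.3 and 21.4 RPKM per kilobase of genomic span and 116 and 117 RPKM per kilobase of exon. CCT8, CCT7 and CCT5 were each within 1% of equal between the libraries, with replicate 2 over replicate 1 ratios of 1.008, 1.003 and 1.000.

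CCT6A, the zeta subunit (ENSG00000146731, chromosome 7, 56051685 to 56063989, plus strand), had 2282 and 1377 reads. Its levels were 27.2 and 25.2 RPKM per kilobase of genomic span and 85.7 and 79.4 RPKM per kilobase of exon, the lowest of the ring on the second scale in both replicates. CCT4, the delta subunit, in which a mutation causes a sensory neuropathy in the rat (ENSG00000115484, chromosome 2, 61868085 to 61888671, minus strand), had 2436 and 1476 reads, or 17.3 and 16.1 RPKM per kilobase of genomic span and 126 and 117 RPKM per kilobase of exon. CCT3, the gamma subunit (ENSG00000163468, chromosome 1, 156308968 to 156367873, minus strand), had 4366 and 2570 reads, the second most of the ring. It was nevertheless lowest per kilobase of genomic span, at 10.9 and 9.81 RPKM, and in mean level the highest per kilobase of exon, at 159 and 144 RPKM.

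**Figure D2:**
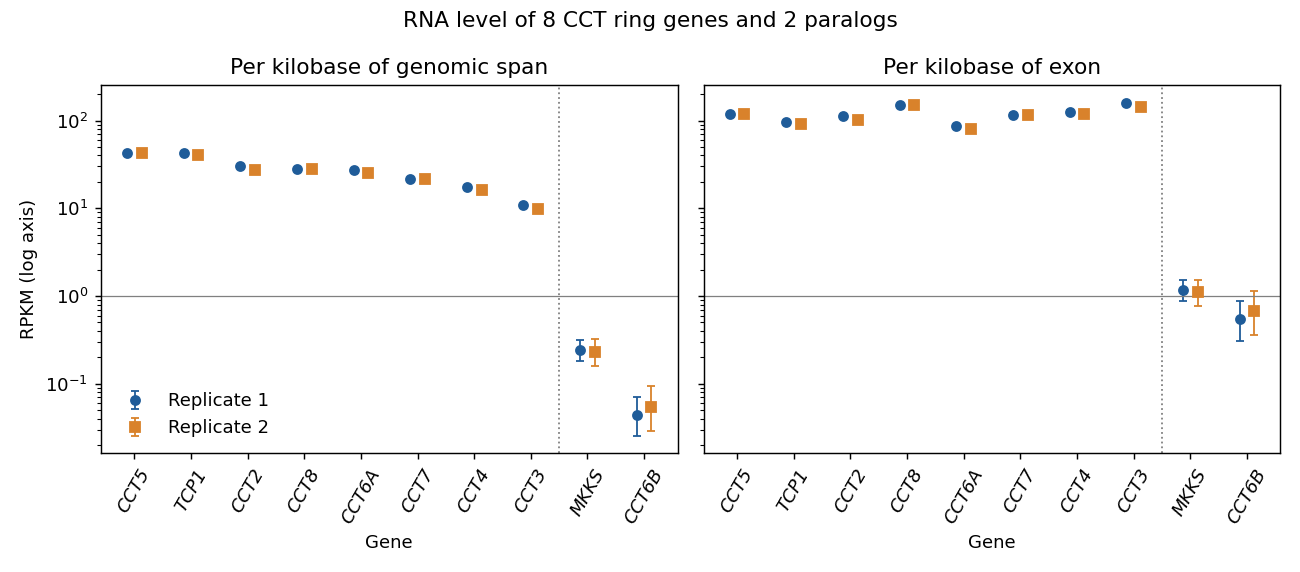
RPKM (log axis) of each member in replicate 1 (blue circles) and replicate 2 (orange squares), per kilobase of genomic span (left) and of exon (right), with bars for the 95% exact Poisson counting interval; genes are in the order of mean level on the left, and the dotted line parts the ring from the paralogs. The ring genes lie from 10.3 to 42.3 RPKM in mean on the left and from 82.5 to 152 on the right, far above MKKS and CCT6B on both.

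Taken as shares of the summed RPKM of the ring, an equal share would be 12.5% for each gene. Per kilobase of genomic span, CCT5 held 19.7 ± 0.554% and TCP1 19.2 ± 0.00989% (SD, n = 2), while CCT3 held 4.80 ± 0.208% and CCT4 7.78 ± 0.177%. The other 4 lay between 9.94% for CCT7 and 13.3% for CCT2. Per kilobase of exon, the shares ran from 8.74 ± 0.185% for CCT6A and 9.96 ± 0.0394% for TCP1 to 16.0% for both CCT8 and CCT3, with CCT5 (12.7%), CCT4 (12.9%) and CCT7 (12.4%) close to an equal share. The highest ring gene was 4.11 ± 0.293 times the lowest per kilobase of genomic span and 1.885 ± 0.0386 times per kilobase of exon. The coefficient of variation over the 8 genes was 40.5% in replicate 1 and 42.2% in replicate 2 on the first scale, and 20.6% and 21.2% on the second. The ring genes were therefore spread less widely per kilobase of exon in each replicate.

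**Figure D3:**
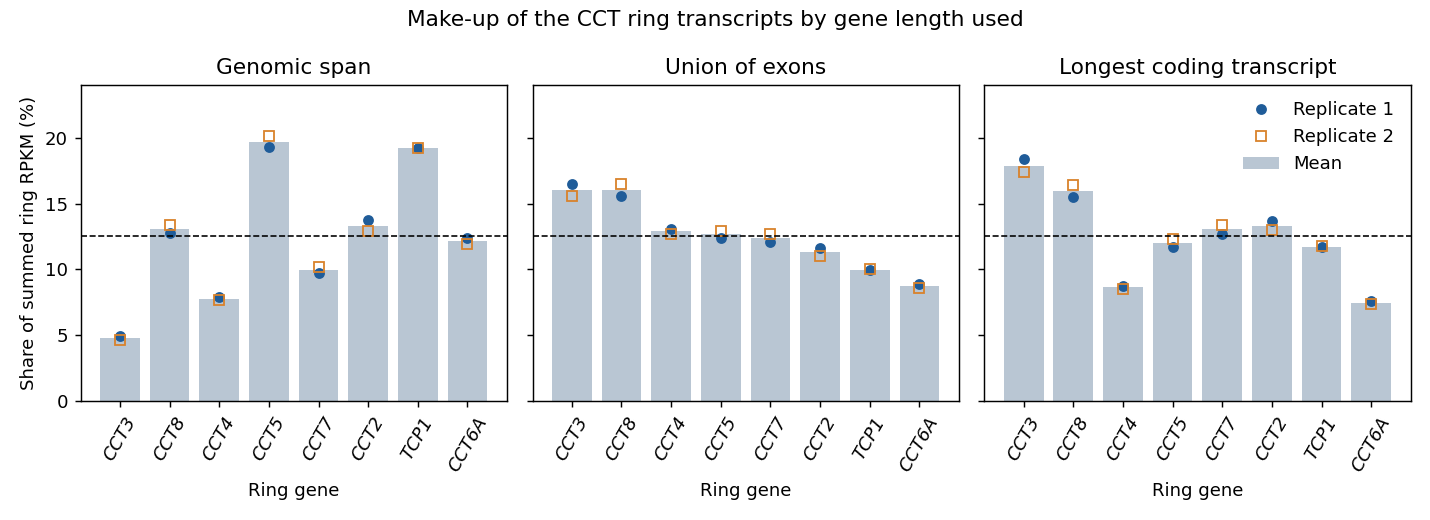
Share of the summed RPKM of the 8 ring genes held by each gene (%), with reads divided by genomic span, by the union of exons or by the longest coding transcript; bars are means, points the replicates, and the dashed line is the equal share of 12.5%. CCT3 moves from the smallest share on the left (4.80%) to the largest in the middle (16.0%) and on the right (17.9%), and CCT6A holds the smallest share in the middle (8.74%) and on the right (7.48%).

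Neighbours in this order were compared by their mean difference in log2(RPKM + 0.1). A difference was called where both replicates gave it the same sign and its size passed the 95% limit of a standard error drawn from the replicate spread of all table genes of at least 1 RPKM. That spread was 0.13 on the log2 scale over 154 genes per kilobase of genomic span, and 0.15 over 247 genes per kilobase of exon. An exact permutation test on 2 replicates cannot pass 0.05, so no p-value is given for the order. Per kilobase of genomic span, 4 of the 7 neighbouring pairs were called, and 2 of the 7 with the spread taken from all table genes, low ones included. TCP1 exceeded CCT2 by 0.53 (0.49 in replicate 1, 0.58 in replicate 2), CCT6A exceeded CCT7 by 0.29, CCT7 exceeded CCT4 by 0.35, and CCT4 exceeded CCT3 by 0.69 on the log2(RPKM + 0.1) scale. CCT5 and TCP1 were not separated (0.03, SE 0.13), nor were CCT2 and CCT8, whose sign differed between the replicates, nor CCT8 and CCT6A (0.10).

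Per kilobase of exon, 1 of the 7 neighbouring pairs was called, and 19 of all 28 pairs of ring genes against 24 of 28 per kilobase of genomic span. The called step lay between CCT8 and CCT4, with CCT8 higher by 0.31 (0.26 in replicate 1, 0.37 in replicate 2) on the log2(RPKM + 0.1) scale. CCT3 and CCT8 formed the upper level on this scale, with a difference under 0.01 in mean and opposite signs in the replicates. CCT4, CCT5, CCT7, CCT2, TCP1 and CCT6A followed in steps of at most 0.19 that were each within the error. Of the steps called by genomic span, those from CCT6A to CCT7 (-0.50) and from CCT4 to CCT3 (-0.31) turned and were called the other way, and those from TCP1 to CCT2 (-0.18) and from CCT7 to CCT4 (-0.06) turned and were not called.

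The change of place of CCT3 goes with its listed length. The table lists 58905 bases for CCT3, which is 2.01 times the RefSeq gene span and 14.7 times the union of its exons, against a table median of 6.37 times the exons. For the other 7 ring genes the listed span was from 2.27 times the exons for TCP1 to 7.27 times for CCT4, and between 0.998 and 1.05 times the RefSeq span. The RefSeq start of CCT3 lies inside the listed span, at the promoter window chr1:156338243-156338542. With RefSeq spans, chosen after the data were seen, CCT3 exceeded CCT4 by 0.31 on the log2(RPKM + 0.1) scale and CCT5 was 2.04 ± 0.145 times CCT3 (SD, n = 2) rather than 4.11 times. Divided by the longest annotated coding transcript, 2150 bases for CCT3, CCT3 was again highest at 283 ± 20.2 RPKM and CCT6A lowest at 118 ± 6.36 RPKM.

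RefSeq promoter windows of 300 bases, mostly before a gene's start (build GRCh38.p14), were on hand for 9 of the 10 members, all but CCT6A, as 12 windows since CCT2, CCT4 and MKKS have 2 each. Windows are printed for TCP1, the founding subunit, and for CCT3 and CCT6B, whose RefSeq starts lie far inside the span listed in the table. Capitals mark paired units of the heat shock element, the site of the factor HSF1, which activates CCT genes in mouse.
TCP1 (chr6:159789553-159789852, minus strand): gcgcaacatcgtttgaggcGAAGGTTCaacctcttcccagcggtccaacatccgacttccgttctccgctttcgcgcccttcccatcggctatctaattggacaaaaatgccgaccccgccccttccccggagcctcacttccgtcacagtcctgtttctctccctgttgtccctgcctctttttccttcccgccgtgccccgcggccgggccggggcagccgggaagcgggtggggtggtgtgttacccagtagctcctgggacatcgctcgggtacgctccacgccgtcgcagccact
CCT3 (chr1:156338243-156338542, minus strand): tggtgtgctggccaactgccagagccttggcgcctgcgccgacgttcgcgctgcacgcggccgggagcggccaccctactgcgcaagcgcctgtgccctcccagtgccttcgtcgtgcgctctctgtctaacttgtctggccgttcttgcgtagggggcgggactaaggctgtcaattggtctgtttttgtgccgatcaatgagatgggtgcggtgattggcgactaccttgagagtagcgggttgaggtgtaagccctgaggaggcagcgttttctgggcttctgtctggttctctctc
CCT6B (chr17:34961411-34961710, minus strand): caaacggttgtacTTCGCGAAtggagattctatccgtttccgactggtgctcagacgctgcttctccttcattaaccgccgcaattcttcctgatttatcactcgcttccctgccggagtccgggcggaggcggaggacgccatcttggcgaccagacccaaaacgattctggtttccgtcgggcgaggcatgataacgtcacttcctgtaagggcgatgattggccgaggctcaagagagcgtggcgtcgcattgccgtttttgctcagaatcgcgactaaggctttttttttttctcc

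The heat shock motifs searched were GAANNTTC and TTCNNGAA, each its own reverse complement, so that a search of 1 strand covers both. Either motif was present in 4 of the 12 windows, 1 each for TCP1, CCT2, CCT4 and CCT6B, and in 13.5% of the 35116 promoter windows of the whole RefSeq table. The match in the CCT6B window lies inside the annotated gene ZNF830, which starts at 34961530 on the opposite strand. The windows of CCT4 overlap each other, so not all 12 are separate promoters. The motif CGGAAG, the core of ETS factor sites, stood on either strand in 6 of the 12 windows, those of TCP1, CCT2 (both), CCT5, CCT7 and CCT8, against 19.5% of all windows. It was absent from the windows of CCT6B and MKKS, and also from those of CCT3 and CCT4. The CCAAT box stood on either strand in 5 of the 12 windows, 1 each for TCP1, CCT2, CCT3, CCT6B and CCT8, against 34.6% of all windows. TATAAA was in 1 member window, the MKKS window with 4 CpG dinucleotides, against 11.5% of all windows. The other 11 member windows held 22 to 35 CpG dinucleotides, where the median of all windows was 14. These are matches of letters in a short window and say nothing of binding.

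The next question was how far the ring stood above its paralogs. CCT6B (ENSG00000132141, chromosome 17, 34927859 to 34981078, minus strand) had 16 reads in replicate 1 and 13 in replicate 2. Its level was 0.0440 RPKM in replicate 1 (95% exact Poisson interval 0.0252 to 0.0715) and 0.0550 in replicate 2 (0.0293 to 0.0940) per kilobase of genomic span, and 0.541 and 0.675 RPKM per kilobase of exon. MKKS (ENSG00000125863, chromosome 20, 10401009 to 10434222, minus strand) had 55 and 34 reads, or 0.243 RPKM (0.183 to 0.316) and 0.230 RPKM (0.160 to 0.322) per kilobase of genomic span, and 1.16 and 1.10 RPKM per kilobase of exon. For each paralog the intervals of the libraries overlap.

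All 16 pairs of a ring gene with a paralog were called, with the ring gene higher, whichever of genomic span and exons was the divisor. Per kilobase of genomic span the ring median exceeded CCT6B by 7.49 and MKKS by 6.32 on the log2(RPKM + 0.1) scale. As plain ratios of RPKM, without the added 0.1, it was 551 ± 106 times CCT6B and 114 ± 0.0356 times MKKS (SD, n = 2). The added 0.1 is larger than the CCT6B mean of 0.0495 RPKM, so the log2 differences are smaller than these ratios imply. Per kilobase of exon the ring median was 196 ± 31.5 times CCT6B and 104 ± 3.31 times MKKS. Even the lowest ring gene was 138 ± 28.8 times CCT6B and 73.1 ± 1.25 times MKKS per kilobase of exon. Divided by the longest coding transcript, the ring median was 139 ± 23.0 times CCT6B and 168 ± 4.51 times MKKS, and by reads alone it was 179 ± 36.7 and 58.9 ± 0.811 times. With RefSeq spans it was 353 ± 72.4 times CCT6B and 115 ± 1.53 times MKKS. The size of both gaps thus depended on the length used, and their sign did not. Each SD of these ratios is that of 2 values and does not hold the counting error of the paralogs. That error is larger than the small SDs against MKKS, which had 55 and 34 reads, and CCT6B had 16 and 13.

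CCT6A and CCT6B are different genes that encode paralogous forms of the zeta subunit. CCT6A was 617 times CCT6B in replicate 1 and 458 times in replicate 2 per kilobase of genomic span, and 158.5 and 118 times per kilobase of exon. The listed span of CCT6B is 1.58 times its RefSeq span. With RefSeq spans, chosen after the data were seen, CCT6A was 392 times CCT6B in replicate 1 and 291 times in replicate 2. Summed over both libraries, the ratio per kilobase of exon was 140 with a 95% exact interval of 97.4 to 210, from 3659 against 29 reads. Per kilobase of the longest coding transcript it was 85.3 (59.3 to 127.5). The interval covers counting error only. Their coding sequences in GENCODE 29 aligned over 1590 bases with 80.7% identity. All other pairs of members had identities of 56.2% to 63.3% over the bases aligned, after gaps. No unrelated coding sequences were aligned for comparison, so values in that range are not a measure of relatedness. The first 60 coding bases of each show how the copies differ, with the 15 mismatched bases in capitals.
CCT6A: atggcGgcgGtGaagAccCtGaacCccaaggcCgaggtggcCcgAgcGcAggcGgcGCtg
CCT6B: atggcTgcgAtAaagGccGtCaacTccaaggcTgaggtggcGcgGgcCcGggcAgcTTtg

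The copies had no stretch of 50 bases in common in these transcripts. Of the 2670 windows of 50 bases in the longest coding CCT6A transcript, 178 (6.67%) also occurred in transcripts of other genes, and these were its pseudogenes CCT6P1, CCT6P2, CCT6P3 and CCT6P4, not CCT6B. The 1789 windows of CCT6B, the 2140 of CCT2, the 2101 of CCT3, the 2471 of CCT4 and the 1982 of CCT7 occurred in no other gene's annotated transcripts. TCP1 shared 7.80% of its windows (with TCP1P1, TCP1P3 and AC008817.1), CCT8 8.59% (all with CCT8P1) and CCT5 2.73% (with CCT5P1 and CCT5P2). GENCODE 29 names 13 pseudogenes after these genes. The sources used here do not give how reads matching several genes were counted, so the levels of TCP1, CCT5, CCT6A and CCT8 are uncertain. Only exact matches of 50 bases to annotated transcripts were sought, so these shares do not bound that uncertainty. Pseudogenes are also named after CCT4 and CCT7, and matches with mismatches were not sought for any member.

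MKKS shared 8.91% of its windows with AL034430.1 and AL034430.2, annotated genes on the same strand within its span, so its level is uncertain too. MKKS exceeded CCT6B by 1.17 per kilobase of genomic span (1.25 and 1.09 in the replicates), and per kilobase of exon by 0.80 (0.97 and 0.63) on the log2(RPKM + 0.1) scale, and both differences were called. The limit for a call came from better covered genes and does not hold the counting error of these few reads. The added 0.1 RPKM also shrinks the difference per kilobase of genomic span, where CCT6B had a mean of 0.0495 RPKM. By exact counting intervals over both libraries, the ratio was 4.92 (3.20 to 7.76) per kilobase of genomic span and 1.91 (1.25 to 3.02) per kilobase of exon, and the latter in replicate 2 alone was 1.63 (0.839 to 3.37). Divided by the longest coding transcript, 6714 bases for MKKS and 1838 for CCT6B, the difference turned to -0.26 and was not called. The ratio of MKKS to CCT6B was then 0.840 with a 95% exact interval of 0.547 to 1.32 over both libraries. The order of the paralogs thus depended on the length used.

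Other genes lie within the listed spans of most members. CCT6B overlaps ZNF830, a zinc finger gene, over 2246 bases and LIG3, a DNA ligase, over 585 bases, both on the opposite strand and both outside the RefSeq span of CCT6B. CCT3 overlaps TSACC, a gene named for a testis kinase co-chaperone, over 9682 bases on the opposite strand. TCP1 meets ACAT2, an acetyl-CoA acetyltransferase, over 558 bases on the opposite strand, and holds the snoRNAs SNORA20 and SNORA29, as CCT6A holds SNORA22B and SNORA15. Antisense transcripts are annotated in CCT4, CCT5 and CCT6B, and a sense intronic one in CCT8, while no annotated gene overlaps CCT2 or CCT7. MKKS holds AL034430.1, a protein-coding gene on its own strand, over 18403 bases, the longest overlap of any member. The libraries were stranded, per the labels' protocols, but the strand setting of the counting is not given, so reads of opposite partners cannot be told apart from those of the members. How reads in overlaps on the same strand were assigned is not given either, so the MKKS count carries that limit. Their part in the values was not tested.

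Genes that work with CCT or resemble it were set beside the ring. Prefoldin, the hexamer that delivers actin and tubulin, had all 6 subunits measured. Of these, 3 reached 1 RPKM per kilobase of genomic span (PFDN6 at 2.82 ± 0.168, VBP1 at 2.57 ± 0.377 and PFDN4 at 1.79 ± 0.0693) and 5 reached it per kilobase of exon. The prefoldin median was 1.37 RPKM per kilobase of genomic span and 18.1 RPKM per kilobase of exon, where the ring median was 118. PFDN5, from 26 and 12 reads, was the lowest at 0.963 RPKM per kilobase of exon and VBP1 the highest at 54.6. The coefficient of variation over the prefoldin genes was 95.5% and 82.2% in the replicates per kilobase of exon, against 20.6% and 21.2% over the ring. Per kilobase of genomic span it was 58.3% and 61.0%, against 40.5% and 42.2% over the ring. On that scale the highest prefoldin gene was 4.37 times the lowest, against 4.11 times for the ring. The contrast between the sets thus depended on the length used. All 3 prefoldin-like genes measured (UXT, PDRG1 and URI1) reached 1 RPKM on both scales, led by UXT at 4.66 RPKM per kilobase of genomic span. The phosducin-like cofactors PDCL, PDCL2 and PDCL3 were not analysed here, nor were BBS12, CALR3 and TCP11.

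Of 5 other chaperonin-type genes measured, 3 reached 1 RPKM per kilobase of genomic span, as did 46.4% of the table's genes. HSPD1, the chaperonin of mitochondria, had 5370 and 3642 reads and stood at 26.6 ± 0.769 RPKM per kilobase of genomic span and 189 ± 5.46 RPKM per kilobase of exon, above all 8 ring genes on the second scale. Its cofactor HSPE1 stood at 10.7 ± 1.12 RPKM per kilobase of exon. BBS10, the partner of MKKS, stood at 4.84 ± 0.145 RPKM per kilobase of genomic span and 5.31 ± 0.159 RPKM per kilobase of exon, above MKKS in both replicates on both scales. The ring-like genes CCT8L1P and CCT8L2 had 0 reads in both libraries. Of 11 other chaperome genes known mainly from testis, none reached 1 RPKM per kilobase of genomic span, and 3 were above CCT6B in mean. These were CLGN, HSPB9 (3 reads in replicate 1 and 0 in replicate 2) and DNAJC5G (2 reads in each). Over the whole table, 154 of 332 genes reached 1 RPKM on that scale and 275 were above CCT6B. Per kilobase of exon CLGN, a testis homolog of calnexin, was the 1 gene of the 11 above CCT6B and above 1 RPKM, at 5.89 ± 0.605. On that scale 257 of the 332 table genes were above CCT6B and 247 reached 1 RPKM. These lists are read by counts alone, without a test.

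The last question was how well the replicates matched for each member. Across the table, 15 of the 320 genes with a read (4.69%) differed between the libraries in an exact binomial test with Benjamini-Hochberg adjustment at 0.05, and 55 had an unadjusted p under 0.05. Of the 10 members, 2 were called. CCT3 was lower in replicate 2 by a log2 ratio of -0.15 (95% exact interval -0.22 to -0.07, adjusted p = 0.00254, exact binomial test) and CCT2 by -0.15 (-0.23 to -0.07, adjusted p = 0.0148, exact binomial test), about 0.90 times in each case. CCT6A (-0.11, adjusted p = 0.217, exact binomial test) and CCT4 (-0.10, adjusted p = 0.222) had intervals below 0 but did not pass the adjustment. TCP1 (-0.06), CCT5, CCT7 and CCT8 did not pass either, and 5 of the 8 ring genes had a negative ratio, as did 59.5% of the 232 table genes with at least 100 reads. The median ratio of the ring was -0.08, and that of the same 232 table genes was -0.04. The test sets library against library within 1 group and covers counting error only. Small differences pass it only in genes with many reads. The median gene of the table had 198 reads in replicate 1 and 129 in replicate 2, far fewer than CCT3 and CCT2. No share of calls among genes of like depth was computed, so the members' calls cannot be set against 4.69%.

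**Figure D4:**
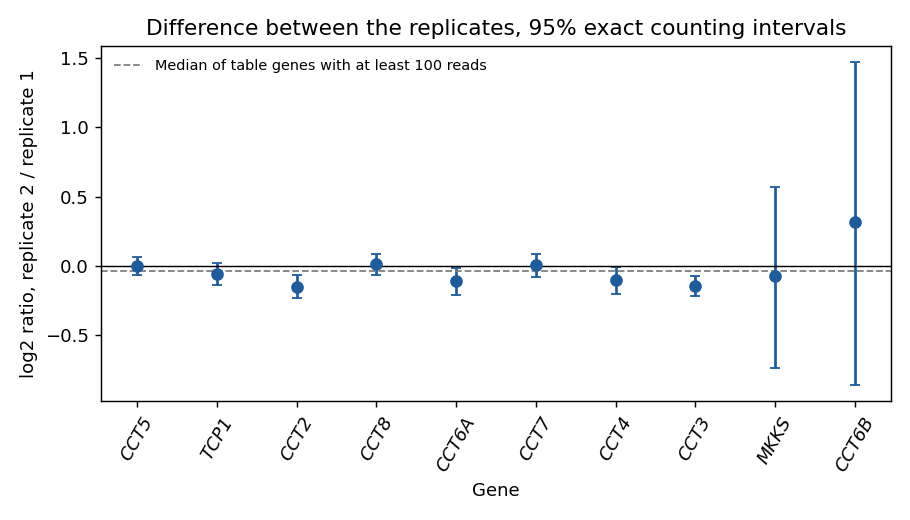
Log2 ratio of reads, scaled by library total, in replicate 2 over replicate 1 for each member, with 95% exact counting intervals; the dashed line is the median of table genes with at least 100 reads (-0.04). CCT2, CCT3, CCT4 and CCT6A lie below 0 with intervals that exclude it (CCT2 and CCT3 passed the adjusted test), CCT5, CCT7 and CCT8 lie near 0, and the intervals of MKKS and CCT6B are wide.

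The paralogs had too few reads for a close comparison of the libraries. MKKS gave a log2 ratio of -0.07 (95% exact interval -0.74 to 0.57, adjusted p = 1.0, exact binomial test), and CCT6B one of 0.32 (-0.86 to 1.47, adjusted p = 0.946). A change of less than about these limits was not detectable at this depth. Among the ring genes the shift changed the make-up little. The largest change in share per kilobase of exon was that of CCT3, from 16.5% in replicate 1 to 15.6% in replicate 2, and of CCT8, from 15.6% to 16.5%, so these genes exchanged first place. With the library scales of edgeR's TMM method, CCT3 stayed called and CCT2 did not (adjusted p = 0.0555, exact binomial test).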

How the data were processed

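Trizol extraction and a stranded kit for total RNA were used, per the labels' protocols. STAR 2.6.0b, Bowtie2 2.4.2, Trim Galore 0.6.4 and the build GRCh38 are listed, without roles, per the submitters' processing notes. Not given in the sources used here: counting program, annotation, strand setting, and the treatment of introns and of reads matching several genes. The authors deposited 1 table with whole-number read counts per gene for each replicate and a mean RPKM. The column prefix NHS is not defined in these sources. The deposited RPKM equalled the mean of counts divided by the listed span in kilobases and scaled by library total. The library totals behind it, 6828264 and 4445676 reads, were recovered by least squares with a largest relative misfit of 8.51e-14, and gave each replicate's RPKM.

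Exonic, transcript and coding lengths came from GENCODE 29, where all 332 genes were found, and RefSeq spans were matched by symbol for 326 genes. The design file gave the rule for named genes: all 10 members, the highest gene of each cofactor list and any gene in a count of 5 or fewer. The members and lists were chosen with earlier results of these data known. Coding sequences were aligned with Biopython 1.88. Exact binomial tests used scipy 1.17.1 and were also run on simulated Poisson counts. Such counts hold counting error only, so that run cannot show how the test behaves on these libraries. Alternative library scales came from edgeR 4.0.16 and DESeq2 1.42.0.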

Additional observations from a re-analysis of the deposited data

How the results depend on the processing

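Alternatives were the gene length, the pseudocount, the genes behind the pooled spread, the detection threshold, the library scale, a minimum of 10 reads and leaving out each replicate. RefSeq spans and coding length were chosen after the data were seen. Among 167 values computed again, 112 held (sign and call, or within replicate error, or for a count within 1.5 times), 21 moved, 22 reversed, 7 newly passed and 5 fell short. By these rules, leaving out a replicate could not move the ring's coefficient of variation, range or share. Nor could it turn a called difference, since a call needs the same sign in both replicates. Those values count among the ones that held but test nothing. The ring's excess over each paralog and CCT6A's over CCT6B kept their sign in every setting run, and their call in each one that gives a call. Neighbouring ring pairs called were 1 with exons, 1 with the longest coding transcript, 0 with reads alone, 2 with RefSeq spans, 0 with coding length and 2 with the spread of all genes, against 4. In the same order of lengths, the coefficient of variation was 20.9%, 27.6%, 26.6%, 32.7% and 26.3%, against 41.3%. The highest ring gene was 1.885, 2.39, 2.17, 2.54 and 2.13 times the lowest, against 4.11. The ring's share of the table's summed level was 14.4%, 15.5%, 13.5%, 10.4% (RefSeq spans, 326 genes) and 11.95%, against 10.95%. Members at 1 RPKM or more were 9 with exons and 10 with the longest coding transcript, against 8, and listed cofactor and chaperonin genes 11 with exons, against 9. Over the whole table, 247 of 332 genes reached 1 RPKM with exons and 254 of 325 with the longest coding transcript, against 154 of 332. A change of length is by construction a change of these values. MKKS over CCT6B reversed to -0.26 with the longest coding transcript.

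Steps between ring genes that reversed, as log2 differences, were TCP1 over CCT2 at -0.18 with exons, -0.18 with the longest coding transcript and -0.0493 with coding length. CCT2 over CCT8 was -0.50, -0.26, -0.13 with reads alone, -0.0264 with RefSeq spans, -0.10 with coding length and -0.0538 without replicate 1, against 0.10 without replicate 2. CCT6A over CCT7 was -0.50, -0.80, -0.38 with reads alone and -0.35 with coding length. CCT7 over CCT4 was -0.0612 with exons. CCT4 over CCT3 was -0.31, -1.05, -0.82, -0.31 with RefSeq spans and -0.80 with coding length. The replicate differences of CCT5 and CCT7 reversed to -0.0096 and -0.0046 when scaled to chaperome reads, within counting error. Depth limits CCT6B and MKKS. The order calls have no value with a replicate left out, since the spread needs both. No paired analysis was possible because both samples form 1 group.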
